A study of Homo sapiens with 8 samples.

Results

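The plasminogen activator system was followed through 7 genes in lung cancer cells: the activators *PLAU* and *PLAT*, the receptor *PLAUR*, the inhibitors *SERPINE2* and *SERPINB2*, and *ANXA2* and *S100A10*, which form a plasminogen-binding complex at the cell surface. Every probe that the array assigns to these genes by transcript accession was taken, which gave 9 probes for 7 of the 22439 named genes. *PLAU* and *ANXA2* had 2 probes each, the other genes had 1, and the *PLAT* probe was printed 10 times on every array.

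Expression was measured on 8 two-color oligonucleotide arrays, all on 1 slide, in 4 established lung cancer cell lines. In the first group, *miR-150-3p* was transfected into EBC-1 and SK-MES-1, both labeled as lung squamous cell carcinoma (LUSQ), with 1 array for each line. In the second group, 3 siRNAs against *DONSON*, named siDONSON-1 to siDONSON-3, were each transfected into SBC-3, labeled as small cell lung cancer. In the third group, *LOXL2* had been edited with CRISPR/Cas9 in A549, labeled as lung adenocarcinoma, giving the samples GE1, GE2 and GE3. The labels do not say whether these are separate clones. Treated RNA carried the red dye Cy5 and control RNA of the same line carried the green dye Cy3 on all 8 arrays, with no dye swap, so a dye effect of a gene cannot be told apart from its change. The control of the transfections is labeled both as mock and as not transfected, and that of A549 as not edited. Each treatment was given to its own line or lines, so treatment and cell line cannot be told apart.

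Plasmin is a protease that dissolves fibrin and cuts proteins of the extracellular matrix, and it is made from the zymogen plasminogen by urokinase, the product of *PLAU*, or by tissue-type plasminogen activator, the product of *PLAT*. Urokinase acts at the cell surface when bound to its receptor, the product of *PLAUR*, while serpins such as those encoded by *SERPINE2* and *SERPINB2* trap the activators. In carcinomas the system is known for its part in invasion through the matrix.

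The log2 ratio of Cy5 over Cy3 is used below, so that a positive value means more signal in the treated RNA. The targeted genes were checked first. The log2 ratio of *DONSON* was -2.15, -1.79 and -2.11 with siDONSON-1 to siDONSON-3, and that of *LOXL2* was -2.49, -2.67 and -2.59 in GE1 to GE3. Both genes were lower on all 3 arrays of their group. In the control RNA, 3 of 6 small cell and neuroendocrine markers were well above background in SBC-3 (*NEUROD1*, *CHGA* and *SYP*) and 3 of 5 adenocarcinoma markers in A549, where *NKX2-1* and *SFTPB* were not. The same 3 adenocarcinoma markers (*NAPSA*, *MUC1* and *KRT7*) were well above background in EBC-1 and SK-MES-1. Of 6 squamous markers, 3 were well above background in SK-MES-1 and only *SOX2* in EBC-1. In SBC-3, 2 of these 6 (*TP63* and *SOX2*) were well above background, and *SOX2* was highest in that line. *MUC1* and *KRT7* were also well above background in SBC-3. *CHGA* was well above background in A549 too, and higher there than in SBC-3. These markers thus did not set the lines apart by their labels. *KRT5*, *KRT6A* and *DSG3* were not well above background in either line labeled LUSQ. Outlier flags marked 81 to 133 spots per array, and no spot was saturated (0). Nothing in the labels says that the GE samples, or the control RNAs of a line, came from separate cultures, so the p-values measure the spread between these arrays.

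The promoter windows of the receptor and of urokinase are shown because *PLAUR* was the only member past the threshold in any comparison below and *PLAU* had the widest range of control levels. RefSeq windows on GRCh38.p14, from 250 bases before to 50 bases after a transcript start, were at hand for 6 of the 7 genes. They were searched on both strands for the AP-1 motif TGAGTCA, the GC box GGGCGG and the TATA box TATAAA, and matches are in capitals. The windows lie at chr19:43670120-43670419 (minus strand) for *PLAUR*, and at chr10:73910360-73910659 and chr10:73910882-73911181 (plus strand) for *PLAU*.
PLAUR: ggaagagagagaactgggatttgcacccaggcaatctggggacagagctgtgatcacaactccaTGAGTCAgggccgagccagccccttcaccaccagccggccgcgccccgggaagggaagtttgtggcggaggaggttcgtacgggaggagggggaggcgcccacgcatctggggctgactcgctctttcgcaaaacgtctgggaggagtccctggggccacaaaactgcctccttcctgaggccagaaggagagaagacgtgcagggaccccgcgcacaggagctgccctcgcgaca
PLAU window 1: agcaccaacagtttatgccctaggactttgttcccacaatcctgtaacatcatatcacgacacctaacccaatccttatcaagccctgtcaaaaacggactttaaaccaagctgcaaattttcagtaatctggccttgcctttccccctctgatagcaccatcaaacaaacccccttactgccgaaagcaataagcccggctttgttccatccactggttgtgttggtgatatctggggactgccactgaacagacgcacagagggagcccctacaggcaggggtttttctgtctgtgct
PLAU window 2: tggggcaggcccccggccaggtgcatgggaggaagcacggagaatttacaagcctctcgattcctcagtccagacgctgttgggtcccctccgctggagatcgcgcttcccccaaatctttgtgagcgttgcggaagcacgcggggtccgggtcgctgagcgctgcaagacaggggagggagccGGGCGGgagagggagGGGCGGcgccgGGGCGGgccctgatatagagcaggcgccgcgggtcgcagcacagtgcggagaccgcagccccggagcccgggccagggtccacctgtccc
The *PLAUR* window held 1 AP-1 match, starting at base 65 of the window, and neither of the other motifs. The second *PLAU* window held 3 GC boxes, and the first held none of the 3 motifs. Among all members, the AP-1 motif was present in 2 of 8 windows, those of *PLAUR* and *ANXA2*, while 4.95% of all 35116 windows of that length held it. The GC box was in 5 of the 8 windows and in 45.0% of all, and the TATA box in 2 of 8, those of *SERPINB2* and *ANXA2*, and in 11.5% of all. A match describes letters and not a bound site.

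The control RNA showed how differently the 4 lines express the system. The level of a probe is its Cy3 signal on the log2 scale relative to the median of the 18251 probes that were well above background in Cy3 on all arrays, and it is compared only between lines for the same probe. Each line counts as 1 sample, because the 3 Cy3 channels of SBC-3 or of A549 may be the same RNA, so no test was made. The SD over these repeated channels is technical if the RNA is the same, which the labels do not say. The RNA came from whole cultures, so fewer expressing cells and less RNA per cell cannot be told apart.

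*PLAU* was highest in EBC-1. The level of its first probe was 7.83 in EBC-1, 5.88 in SK-MES-1, 4.58 ± 0.044 (SD, n = 3 channels) in A549 and -0.064 ± 0.077 (SD, n = 3 channels) in SBC-3. From the highest line down, the steps were 3.86-fold, 2.47-fold and 25.0-fold, and the highest level was 238-fold above the lowest. The second probe gave the same order with 4.01 in EBC-1, 1.47 in SK-MES-1 and -0.086 ± 0.040 (SD, n = 3 channels) in A549. In SBC-3 this probe was not well above background on any array, so that EBC-1 was at least 252-fold higher.

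The receptor followed the same order of lines. *PLAUR* had a level of 3.90 in EBC-1, 1.15 in SK-MES-1, -0.31 ± 0.059 (SD, n = 3 channels) in A549 and -3.41 ± 0.55 (SD, n = 3 channels) in SBC-3. EBC-1 was 6.73-fold above SK-MES-1 and 159-fold above SBC-3. The *PLAUR* probe was well above background in Cy3 on only 2 of the 3 SBC-3 arrays, and its repeat spread there was wide, so the lowest level is the least certain.

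*PLAT*, the other activator, ran in a different order. Its level was 3.01 in SK-MES-1, -0.48 ± 0.029 (SD, n = 3 channels) in SBC-3, -0.87 in EBC-1 and -1.96 ± 0.037 (SD, n = 3 channels) in A549. SK-MES-1 thus stood alone, 11.2-fold above SBC-3, the next line, and 31.2-fold above A549. EBC-1, the line with the most *PLAU* signal, was 14.7-fold below SK-MES-1 for *PLAT*.

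The inhibitors differed from the activators and from each other. *SERPINE2*, which encodes protease nexin-1, an inhibitor of thrombin, urokinase and tissue-type plasminogen activator, had a level of 0.74 ± 0.036 (SD, n = 3 channels) in A549, 0.51 in SK-MES-1, 0.14 ± 0.13 (SD, n = 3 channels) in SBC-3 and -2.48 in EBC-1. A549 and SK-MES-1 differed by only 1.17-fold, and SK-MES-1 and SBC-3 by 1.30-fold. EBC-1 was the low line, 9.32-fold below A549. *SERPINB2*, which encodes the inhibitor PAI-2, was well above background in SK-MES-1 only, with a level of 0.40. It was at least 18.1-fold higher there than in EBC-1, at least 20.6-fold higher than in SBC-3 and at least 30.2-fold higher than in A549.

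The genes of the plasminogen-binding complex were lowest in SBC-3. The bright *ANXA2* probe had a level of 7.60 in EBC-1, 7.61 in SK-MES-1 and 7.45 ± 0.093 (SD, n = 3 channels) in A549, against 3.98 ± 0.034 (SD, n = 3 channels) in SBC-3. *S100A10* had a level of 6.24 in EBC-1, 6.08 in SK-MES-1 and 6.30 ± 0.031 (SD, n = 3 channels) in A549, against -0.68 ± 0.17 (SD, n = 3 channels) in SBC-3. The other lines were within 1.17-fold of each other for these 2 probes. SBC-3 was 11.0-fold to 12.4-fold lower for the bright *ANXA2* probe and 108-fold to 126-fold lower for *S100A10*. The dimmer *ANXA2* probe was not well above background in SBC-3 and at least 7.93-fold higher in the other lines. Among those it was less even, with EBC-1 1.84-fold below SK-MES-1 and 1.49-fold below A549.

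**Figure D1:**
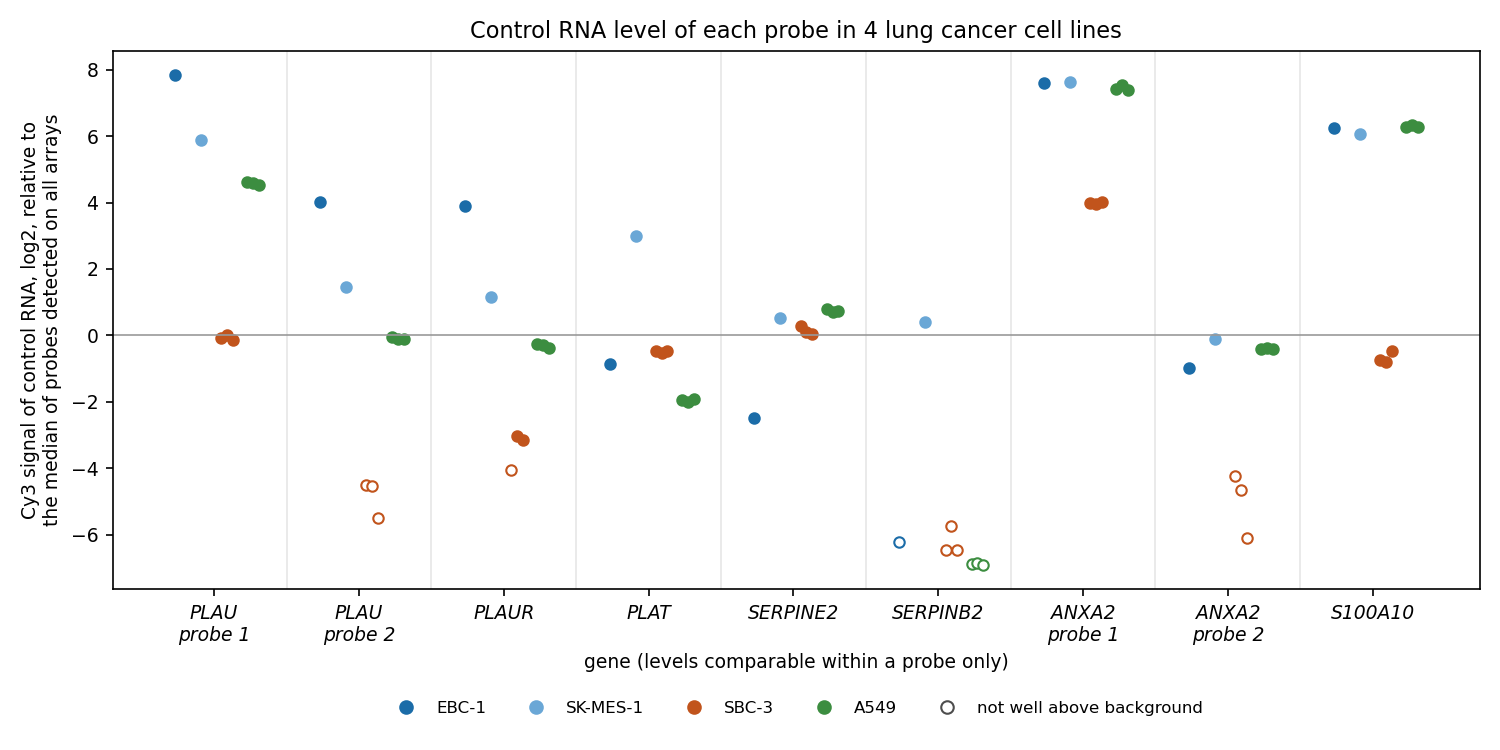
Cy3 level of the control RNA for each of the 9 probes (y axis, log2 relative to the array median of detected probes), with 1 point per array and 1 color per cell line; open points were not well above background. SBC-3 was the lowest line for *PLAU*, *PLAUR*, *ANXA2* and *S100A10*, SK-MES-1 the highest for *PLAT* and *SERPINB2*, and EBC-1 the lowest for *SERPINE2*.

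The highest and lowest line differed by more than 2 on the log2 scale for 9 of 9 member probes, while 32.6% of the 21355 probes detected in some line did so. Detection in 1 line was enough to be counted, which for *SERPINB2* was SK-MES-1. For *SERPINB2*, the second *PLAU* probe and the dimmer *ANXA2* probe, the lowest level was a detection floor. The 9 probes belong to 7 genes chosen with earlier results of these data known, so the comparison is a description. The median range was 4.96 for the member probes and 1.49 for those 21355 probes. The size of these ranges depended on the background correction. With normexp correction, loess and Aquantile scaling, 6 of 9 probes passed 2. The share of all probes past 2 under that correction is not given here, so this count has no background beside it. The *PLAUR* range was then 4.22 rather than 7.31, and the range of the first *PLAU* probe was 6.88 rather than 7.90. SBC-3 was still the lowest line for *PLAU*, *PLAUR*, *ANXA2* and *S100A10* under that correction.

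The response to the treatments was next examined on every array. The single called change was that of *PLAUR* under siDONSON. In SBC-3, the Cy3 signal of *PLAUR* was 39.4, 70.5 and 68.8 intensity units on the arrays of siDONSON-1, siDONSON-2 and siDONSON-3, and the Cy5 signal was 89.6, 103 and 158. The log2 ratios were 1.18, 0.55 and 1.20. All 3 siRNAs gave a higher value, siDONSON-2 the smallest, and its ratio was inside the error band that the scanner software gives at 95% (± 0.57) while the other two were outside theirs. These signals are low. In EBC-1, the same probe gave 9312 units in Cy3, and in A549 between 499 and 519.

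**Figure D2:**
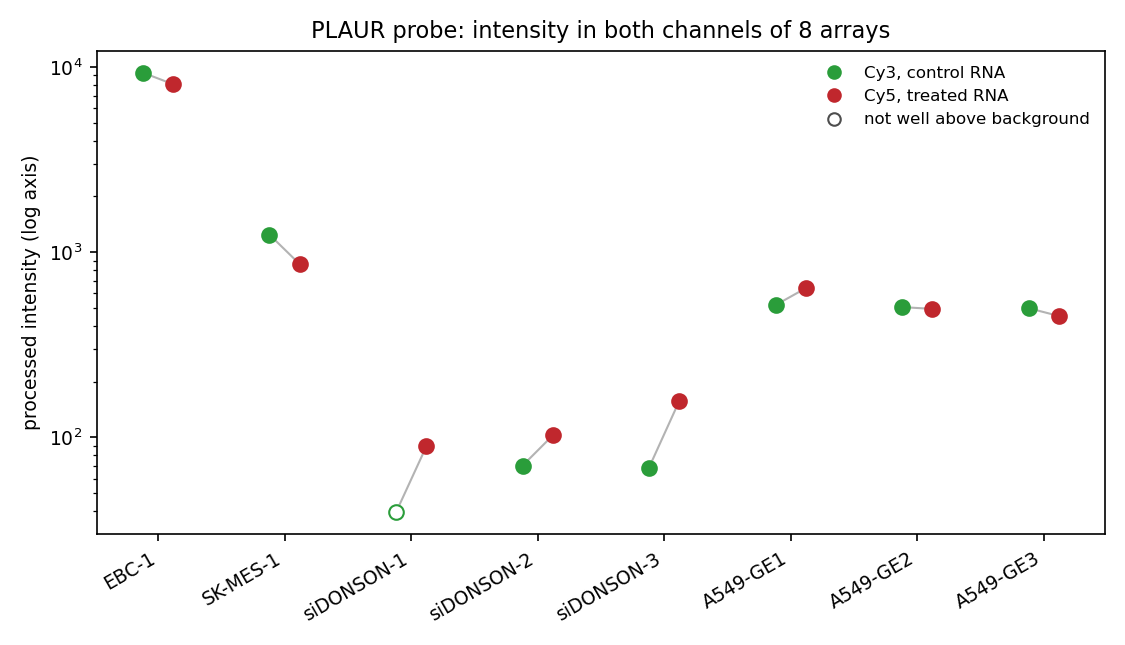
Processed intensity of the *PLAUR* probe (y axis, log scale) on each of the 8 arrays, with Cy3 for control RNA and Cy5 for treated RNA joined by a line; an open point was not well above background. Cy5 lay above Cy3 on all 3 siDONSON arrays, at 89.6 to 158 against 39.4 to 70.5 units, the lowest signals of the 8 arrays.

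The mean log2 ratio of *PLAUR* under siDONSON was 0.98 (SE 0.16, n = 3), a 1.97-fold rise with a limma adjusted p of 0.0179. It was 1 of 6 members called, where 7.22% of 14453 genes tested passed the threshold of 0.05. The call did not hold under every setting. With normexp and loess, the mean was 0.16 and the adjusted p 0.155. That setting adds an offset of 50 units to both channels, beside *PLAUR* signals of 39.4 to 158 units. It therefore draws ratios of dim probes toward 0, here and wherever it is used. The adjusted p was 0.0648 without siDONSON-1, 0.0847 without siDONSON-3, and 0.12 with the spread of the siDONSON arrays alone. When both channels had to be well above background, *PLAUR* was not tested, because its Cy3 signal on the siDONSON-1 array was not.

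**Figure D3:**
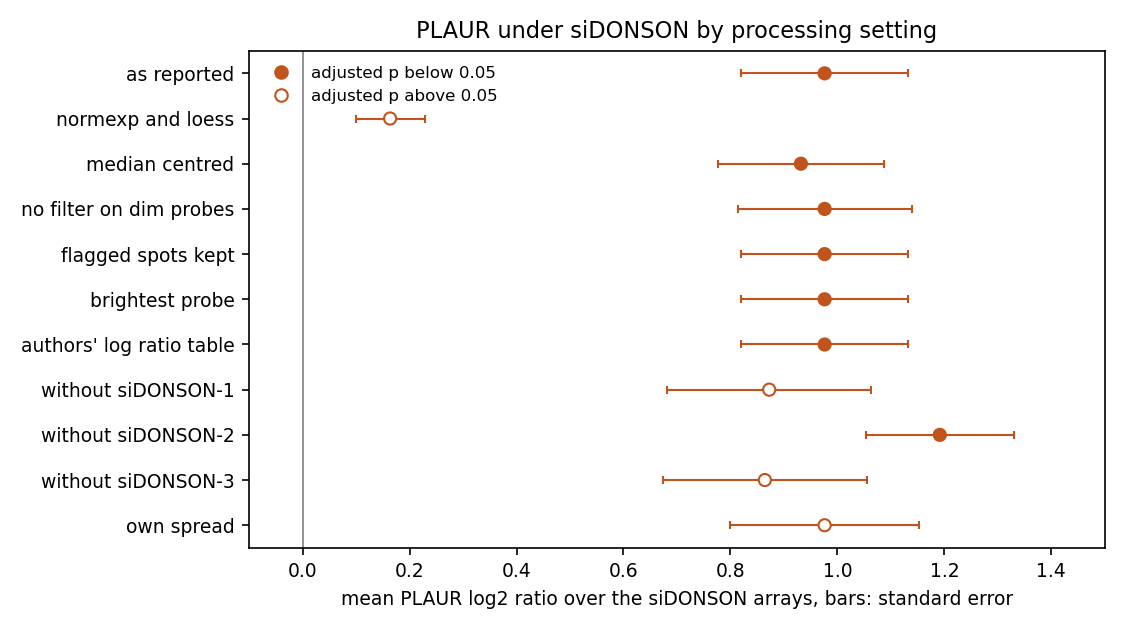
Mean log2 ratio of *PLAUR* over the siDONSON arrays (x axis) with its standard error (bars) in the reported fit and under each alternative (rows); filled points have an adjusted p below 0.05. The mean stayed above 0 in every row and ranged from 0.16 with normexp and loess to 1.19 without siDONSON-2.

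No other member was called under siDONSON, and the siRNAs disagreed among themselves. *S100A10* had log2 ratios of -0.81, -0.98 and 0.56 with siDONSON-1, siDONSON-2 and siDONSON-3, so that the third siRNA went the other way, and all 3 values were outside their error bands. Its mean was -0.41 (SE 0.26, limma adjusted p = 0.351), and without siDONSON-3 it was -0.89 (adjusted p = 0.0302). *SERPINE2* had -0.18, -1.30 and 0.062, far below 0 with siDONSON-2 only, the mean being -0.47 (SE 0.23, adjusted p = 0.235). *PLAT* had 0.10, -0.97 and -0.68, with siDONSON-1 apart from the others, the mean being -0.52 (SE 0.29, adjusted p = 0.303).

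*PLAU* gave -0.29, -0.58 and -0.21 in the same order, lower in 3 of 3 but outside the error band only with siDONSON-2. Its mean was -0.36 (SE 0.25, limma adjusted p = 0.391), and the 95% interval ran from -0.93 to 0.21. *ANXA2* gave 0.49, -0.28 and 0.28, which averaged 0.16 (SE 0.14, adjusted p = 0.504). The partner genes *ANXA2* and *S100A10* thus had opposite signs with siDONSON-1 and the same sign with siDONSON-2 and siDONSON-3. The lowest of the 3 ratios belonged to siDONSON-2 for 6 of 6 members, while siDONSON-2 was lowest for 35.5% of 14453 genes. This pattern was noticed in the values, and members of 1 array share its RNA. The median mean log2 ratio of the 6 members was -0.39, beside 0.031 for all genes tested.

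**Figure D4:**
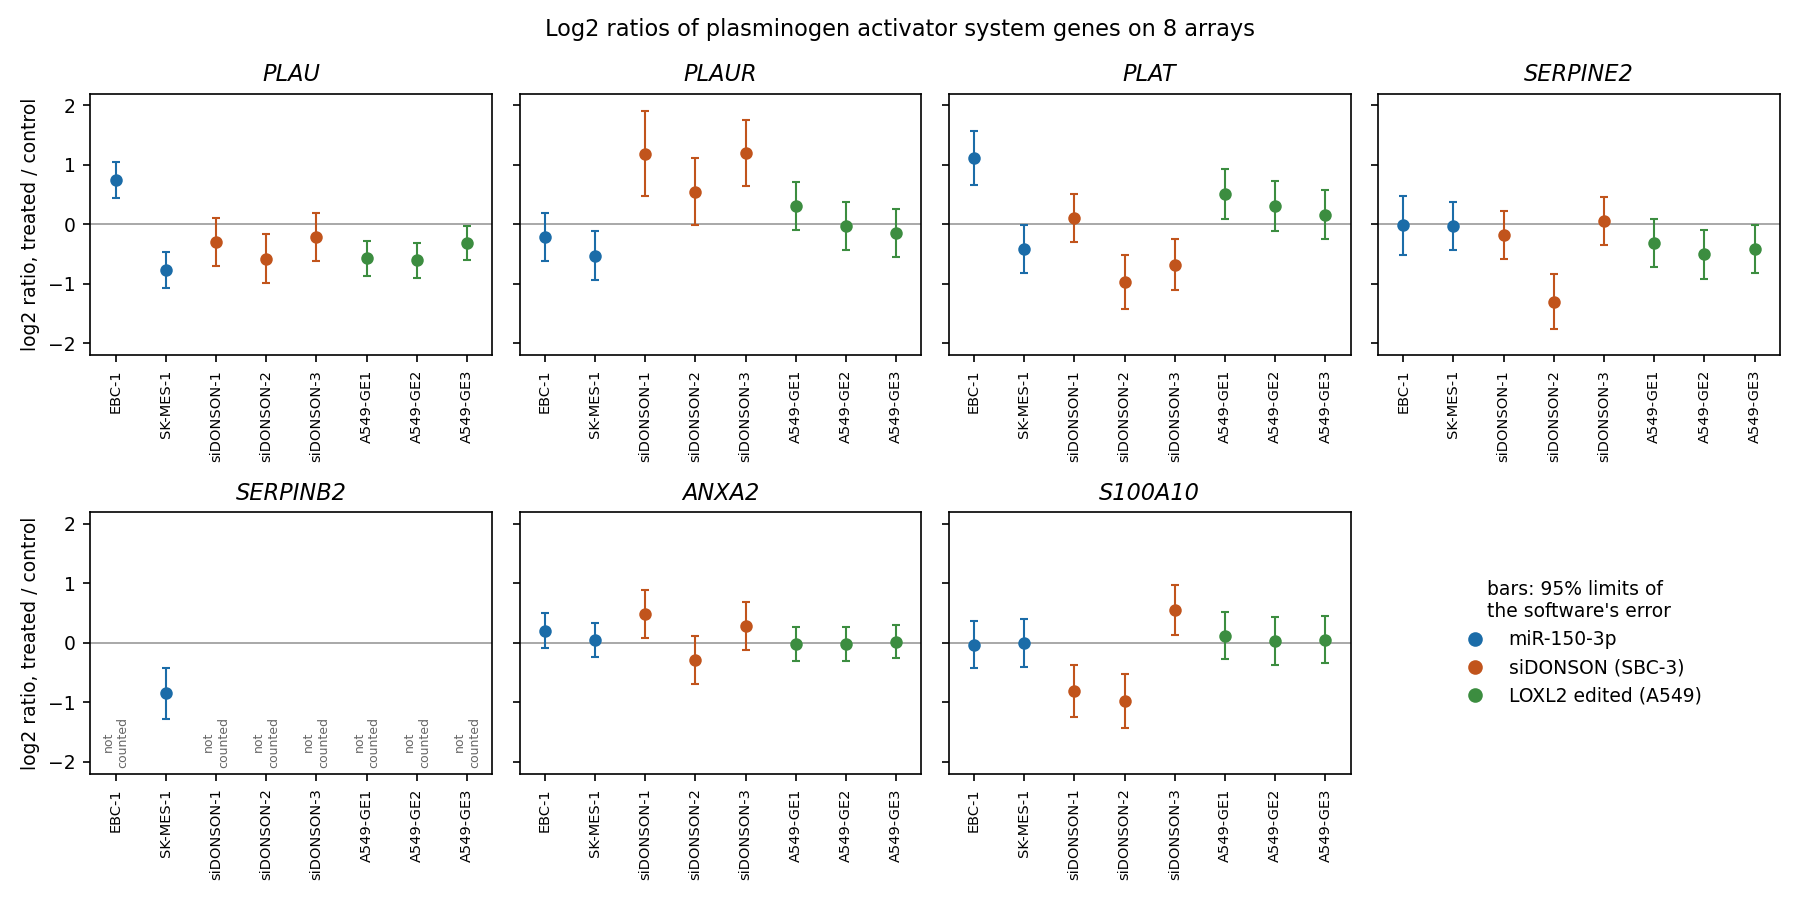
Log2 ratio of treated over control RNA (y axis) for each gene on each of the 8 arrays, with 95% error bands as bars. The bands come from the scanner software's error, combined as independent where 2 probes of a gene counted. The words "not counted" mark arrays where the probe was not well above background in either channel. *PLAU* and *PLAT* were higher in EBC-1 and lower in SK-MES-1, *PLAUR* was higher on the 3 siDONSON arrays, and *ANXA2* stayed between -0.28 and 0.49.

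*miR-150-3p* gave both activators opposite log2 ratios in the LUSQ-labeled lines. In EBC-1, the log2 ratio of *PLAU* was 0.75 (95% error band ± 0.30), a 1.68-fold higher signal. In SK-MES-1 it was -0.77 (± 0.30), a ratio of 0.586. These bands are for the mean of 2 probes and take the software's probe errors as independent. Both *PLAU* probes behaved alike, 0.84 and 0.65 in the first line, -0.74 and -0.80 in the second. *PLAT* showed the same opposition, with 1.12 (± 0.45) in EBC-1, where the signal went from 340 to 737 units, and -0.41 (± 0.41, just outside the band) in SK-MES-1, where it went from 4499 to 3378. The 10 *PLAT* spots had an SD of 0.10 on the EBC-1 array and 0.035 on the other. With 1 array per line, the difference between the lines was not tested.

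*PLAUR* was lower in both lines, at -0.21 in EBC-1, inside its error band (± 0.40), and at -0.53 in SK-MES-1, outside it (± 0.41). *SERPINB2* was measurable in SK-MES-1 only, where its signal went from 737 to 410 units, a log2 ratio of -0.84 (± 0.43). *PLAU*, *PLAT*, *PLAUR* and *SERPINB2* thus all had lower signal in SK-MES-1. For EBC-1 and then SK-MES-1, *SERPINE2* stood at -0.014 and -0.027, *S100A10* at -0.029 and -0.00061, and *ANXA2* at 0.21 and 0.047, all inside their bands.

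Over both lines, 0 of 6 members passed limma's test for *miR-150-3p*, and 0 of 6 at an unadjusted p under 0.05, where 5.38% of 14229 genes passed after adjustment and 30% before it. The mean was -0.011 (SE 0.30) for *PLAU*, -0.37 (SE 0.19, adjusted p = 0.232) for *PLAUR* and 0.35 (SE 0.36, adjusted p = 0.541) for *PLAT*. The interval of *PLAU*, from -0.71 to 0.68, covers changes of either sign. With either line left out, the *PLAU* value was that of the other line alone, 0.75 for EBC-1 and -0.77 for SK-MES-1. The median over the 6 members was -0.013, beside 0.035 for all genes. Of the 6 squamous markers, 3 were tested and *KRT14* was called (limma adjusted p = 0.0295), with a log2 ratio of 1.13 in SK-MES-1 and a control signal not well above background in EBC-1. *SOX2* had opposite signs, at 1.32 (EBC-1) and -0.92 (SK-MES-1), with an adjusted p of 0.802 over both, and *TP63* had 0.25 in SK-MES-1, its control in EBC-1 being likewise dim (adjusted p = 0.422). The part of these markers in the members' values was not tested.

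Under *LOXL2* editing, *PLAU* and *SERPINE2* were lower and *PLAT* was higher on all 3 arrays, though no member passed the test. *PLAU* had log2 ratios of -0.57, -0.60 and -0.31 in GE1, GE2 and GE3, lower in 3 of 3. Each was outside the band of the 2-probe mean, which takes the probe errors as independent. In GE3 both probes lay inside their own software bands, at -0.39 (± 0.41) and -0.23 (± 0.40). The mean of *PLAU* over the 3 arrays was -0.50 (SE 0.25, limma adjusted p = 0.216), a ratio of 0.709. *SERPINE2* had -0.31, -0.51 and -0.42, also lower in 3 of 3, which averaged -0.41 (SE 0.23, adjusted p = 0.265). *PLAT* had 0.51, 0.30 and 0.16, higher in 3 of 3, which averaged 0.32 (SE 0.29, adjusted p = 0.499).

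The spread shared by the 3 groups set these calls. With the spread of the 3 A549 arrays alone, *PLAU* (adjusted p = 0.0216) and *SERPINE2* (adjusted p = 0.0174) passed, and 5873 of 15531 genes did so instead of 2229. The call of *PLAU* also appeared when either *miR-150-3p* array was left out (adjusted p = 0.0246), where its SE was 0.10 rather than 0.25, and that of *SERPINE2* without siDONSON-2 (0.0229). Leaving out arrays of other groups was added after the values were seen. In the shared fit, 0 of 6 members passed in A549 and 0 of 6 at an unadjusted p under 0.05, where 14.4% of all genes tested passed after adjustment and 31% before it. Epithelial markers also differed in A549, with *EPCAM* at -3.11, -2.27 and -1.90 (mean -2.43, limma adjusted p = 0.00387) and *CDH1* at 0.97, 1.61 and 1.51 (mean 1.36, adjusted p = 0.0115), and their part in the members' values was not tested. The other members lay near 0. *PLAUR* had 0.30, -0.033 and -0.14, which straddled 0. *S100A10* had 0.12, 0.031 and 0.054. The *ANXA2* probes differed in sign, with 0.078, 0.040 and 0.20 for the bright probe and -0.11, -0.076 and -0.16 for the dimmer one, all inside their bands. *SERPINB2* was not well above background in either channel. The median over the 6 members was 0.019, beside 0.022 for all genes.

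**Figure D5:**
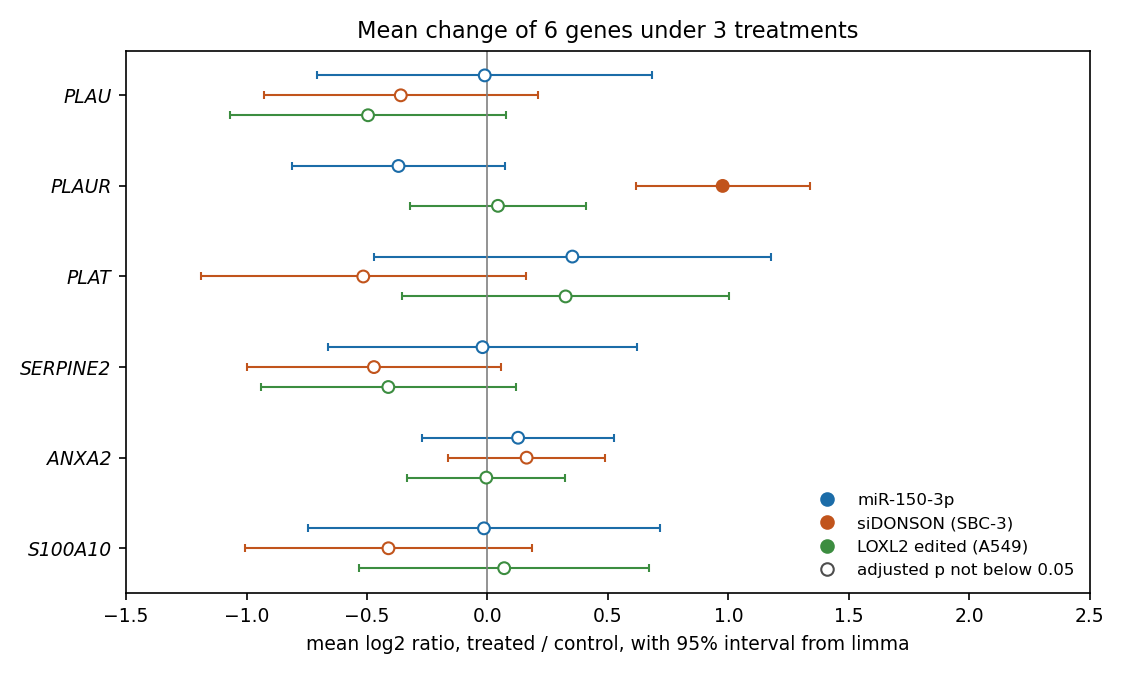
Mean log2 ratio (x axis) of 6 genes under the 3 treatments (colors) with the 95% interval from limma; filled points have an adjusted p below 0.05. Only *PLAUR* under siDONSON, at 0.98, was past the threshold; *SERPINB2* is left out because it was counted on 1 array.

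The treatments were then set against each other in the same model. *PLAUR* responded less under *LOXL2* editing than under siDONSON, by -0.93 (SE 0.22, limma adjusted p = 0.0429), and was 1 of 6 members called where 7.29% of genes were. It was also lower under *miR-150-3p* than under siDONSON, by -1.35 (SE 0.24, adjusted p = 0.0374), again 1 of 6 where 2.69% of genes were called. Between *LOXL2* editing and *miR-150-3p*, 0 of 6 members were called, and 0 of 6 passed at an unadjusted p under 0.05, where 3.6% of genes were called and 22% passed unadjusted. Both *PLAUR* differences use the same dim siDONSON arrays. With normexp and loess the first was -0.094 (adjusted p = 0.572) and the second -0.42 (adjusted p = 0.0638). With no filter on dim probes they had an adjusted p of 0.0743 and 0.086. The first call was lost when any 1 of siDONSON-1, siDONSON-3, GE1, GE2 and GE3 was left out, with adjusted p from 0.084 to 0.153. The second was lost without EBC-1 (adjusted p = 0.124), siDONSON-1 (0.0736) or siDONSON-3 (0.089), or without any 1 A549 array (0.0687 to 0.0842). Without SK-MES-1, the *miR-150-3p* side was EBC-1 alone. The difference between *miR-150-3p* and siDONSON was then 1.11 for *PLAU* and 1.63 for *PLAT*. Between *LOXL2* editing and *miR-150-3p* it was -1.24 for *PLAU*. Without siDONSON-3, *S100A10* passed in place of *PLAUR* against *LOXL2* editing (0.96, adjusted p = 0.0199) and against *miR-150-3p* (0.88, adjusted p = 0.0487).

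Other genes of the pathway were taken from lists by role. The share of all genes tested that was called was 5.38% under *miR-150-3p*, 7.22% under siDONSON and 14.4% in A549. These shares stand beside the counts of every list below, which were not tested against them. Among 8 zymogen and activating protease genes, 4 were tested in A549. *CTSB*, the lysosomal protease cathepsin B, which can activate pro-urokinase, rose on all 3 arrays with log2 ratios of 1.30, 1.36 and 1.37 (mean 1.34, limma adjusted p = 0.00231). *F12*, coagulation factor XII, fell by a mean of 0.69 (adjusted p = 0.00939), a ratio of 0.622. Without any 1 of the A549 arrays the mean was between -0.73 and -0.61 but was not called (adjusted p from 0.0566 to 0.0735). None of the list was called under siDONSON (0 of 5) or *miR-150-3p* (0 of 4). The list median was 0.21 under *miR-150-3p*, -0.044 under siDONSON and -0.18 in A549. Of 6 further inhibitor genes, only *SERPINI1*, which encodes neuroserpin, an inhibitor of tissue-type plasminogen activator, could be tested, in A549 alone. Its control signal was not well above background on any A549 array while its edited signal was on all 3, so it was at least 1.80-fold higher there (adjusted p = 0.0182) and entered the test through the edited channel. With normexp and loess the mean was 0.19 (adjusted p = 0.0788), and the call was also lost without GE2 (0.0514) or GE3 (0.0901).

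Under siDONSON, where 7.22% of all genes tested were called, 15 of 16 surface receptors and partners were tested and 2 fell. They were *MRC2*, which encodes a collagen receptor that associates with the urokinase receptor, at -0.92, -0.47 and -0.44 (mean -0.61, limma adjusted p = 0.0322), and *PLGRKT*, a plasminogen receptor, at -0.94, -0.30 and -0.57 (mean -0.60, adjusted p = 0.0327). Both calls were lost without siDONSON-1 (adjusted p = 0.0984 and 0.0905) and without siDONSON-3 (0.0856 and 0.109), when any 1 of the A549 arrays was left out of the shared spread (0.0654 to 0.0714), and with the spread of the siDONSON arrays alone (0.165 and 0.182). In A549, *VTN*, vitronectin, a ligand of the urokinase receptor, rose at 2.06, 2.24 and 1.88 (mean 2.06, adjusted p = 0.0119, and 1.09 with normexp and loess), and *KRT8*, a keratin that binds plasminogen, fell by a mean of 0.53 (adjusted p = 0.00918). Both of these calls were lost without any 1 of the A549 arrays, with adjusted p from 0.0577 to 0.0775. None of 14 was called under *miR-150-3p*. The list median was 0.14 under *miR-150-3p*, -0.14 under siDONSON and -0.020 in A549.

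Among 11 substrates and downstream genes, 8 were tested in A549, of which 4 fell and 1 rose, where 14.4% of all genes tested were called. *FN1*, which encodes the matrix protein fibronectin, fell, with -1.94, -1.98 and -1.20 (mean -1.70, limma adjusted p = 0.00606). With normexp and loess its mean was -0.67. Of the genes for laminin chains, *LAMB3* fell (mean -1.21, adjusted p = 0.00519) and *LAMA3* rose (mean 0.54, adjusted p = 0.0342). The *LAMA3* call was lost without any 1 of the A549 arrays (adjusted p from 0.101 to 0.208). The list median there was -0.44, beside 0.022 for all genes. Under siDONSON 1 of 7 was called, where 7.22% of all genes tested were. It was *TGFB1*, a latent growth factor that plasmin can release, with a mean of 0.52 (limma adjusted p = 0.0256). The call was lost without siDONSON-2 (0.0513), siDONSON-3 (0.0948) or any 1 A549 array (0.0596 to 0.062). It was also lost with the spread of the siDONSON arrays alone (0.177). In A549 *TGFB1* fell, with -0.41, -0.42 and -0.39 (mean -0.41, adjusted p = 0.0327), a call lost without any 1 of the A549 arrays (0.146 to 0.175). Under *miR-150-3p* 0 of 8 were called. The list median was -0.023 under siDONSON and 0.12 under *miR-150-3p*.

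The factors of the AP-1 and ETS families, whose motifs are known in promoters of this system, formed a list of 10 genes. *FOSL1*, which encodes an AP-1 subunit of the FOS family, was the only one called, and it was called under all 3 treatments. With *miR-150-3p*, EBC-1 gave -1.40 and SK-MES-1 -0.58 (mean -0.99, limma adjusted p = 0.0419). It was 0.47, 0.70 and 1.02 with siDONSON-1, siDONSON-2 and siDONSON-3 (mean 0.73, adjusted p = 0.044), and -1.20, -1.41 and -1.49 in GE1, GE2 and GE3 (mean -1.36, adjusted p = 0.00354). *FOSL1* and *PLAUR* were therefore both higher on the 3 siDONSON arrays, while in A549 *FOSL1* was lower and *PLAUR* lay on both sides of 0. With *miR-150-3p* both had negative ratios, but *PLAUR* was not called (limma adjusted p = 0.232). *FOSL1* was lower in EBC-1, and *PLAUR* in SK-MES-1 (-0.53, against -0.21 in EBC-1, inside its error band). With siDONSON-1 and siDONSON-2, *PLAUR* had 1.18 and 0.55, the reverse order of *FOSL1*. A link between the genes was not tested. The median of the AP-1 and ETS list was 0.20 under *miR-150-3p*, 0.48 under siDONSON and -0.067 in A549. The *miR-150-3p* call was lost without siDONSON-3 (adjusted p = 0.0547) or any 1 A549 array (0.0808 to 0.0879), the mean staying at -0.99. Calls over all genes also fell, from 765 of 14229 to 394 without siDONSON-3 and 51 to 78 without an A549 array. It was also lost with no filter on dim probes (0.0541), where 198 of 22439 genes were called. With the spread of its own 2 arrays alone (0.356), 0 genes were called. Without EBC-1, the value was the -0.58 of SK-MES-1 alone. The siDONSON call was lost when any 1 of its own or of the A549 arrays was left out (adjusted p from 0.0751 to 0.177), after median centering (0.0584), with normexp and loess (0.0826), and with its own spread (0.14).

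The clade B serpin genes next to *SERPINB2* were largely undetected, with 3 of 9 tested under *miR-150-3p*, 2 under siDONSON and 1 in A549, and 0 called in each. Their median was 0.45, -0.032 and -0.73 in the same order. *SERPINB3* and *SERPINB4*, near-identical copies whose probes may share signal, were counted in EBC-1 only and so not tested, and their log2 ratios there were 3.86 and 3.95.

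Finally, the genes whose log2 ratios ran most like those of each member over the 8 arrays were found among 11210 genes (11211 for *PLAUR*) with both channels well above background throughout. For *PLAU* they were *ERCC3* (Pearson r = 0.968), *CORO1B* (0.968) and *MAPK8IP3* (0.963), and for *PLAUR* they were *CD164* (0.979), *KIAA0513* (0.963) and *GNB1L* (0.963). For *PLAT* they were *DGCR5* (0.969), *RRBP1* (0.956) and *OSBPL7* (0.955), and for *SERPINE2* they were *PITPNA* (0.980), *YIPF6* (0.976) and *KRCC1* (0.976). *ANXA2* ran most like *NKTR* (0.986), and *S100A10* most like *MARF1* (0.980). The 8 points share lines, controls and arrays, and the best of so many candidates is high by selection, so these values are a description. Between members, r was 0.15 for *ANXA2* and *S100A10* and 0.60 for *PLAU* and *PLAT*, over the same 8 arrays.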

How the data were processed

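Total RNA of 8 samples and their controls was hybridized to Agilent two-color arrays. For each array the authors deposited scanner output of Feature Extraction 12.1.1.1. Its processed intensities had been background-subtracted and dye-normalized by the software. The deposited output also gives a log10 ratio (red to green), and an error of that ratio, a score from the software's error model. The authors' series table repeated these log10 ratios exactly, the largest difference being 0. Log2 ratios were computed here from the deposited processed intensities, without control spots and flagged outliers. They differed from the deposited ratios by more than 0.001 on the log2 scale for 24.7% of spots, by up to 0.95. At member probes the largest difference was 0.88, the size of the *SERPINB2* ratio in GE2, where that probe was not well above background. Replicate spots were averaged. A probe counted where at least 1 channel was well above background, and a gene is the mean of its counted probes. Between 41.1% and 46.4% of spots passed in green. Precision is limited by how few arrays there are.

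RefSeq accessions gave symbols to 31104 of 58201 probes. The array files name an older build than GRCh38.p14, so only names and promoter windows come from RefSeq. limma 3.58.1 (R 4.3.3) fitted 3 groups to all 8 arrays, with 5 residual degrees of freedom for a gene counted on every array. A gene not counted on some arrays had fewer, such as 3 for *EPCAM* and 2 for *CDH1* and *SERPINI1* in A549. Group means and their differences were tested, two-sided, with Benjamini-Hochberg adjustment over all genes at 0.05. The script was tested on simulated data. A fold for a dim probe is a bound set by the dimmest detected probe of each array. The members and lists were chosen with earlier results of these data known. All members are named, with up to 4 called genes of each list and the 3 genes most like each member. A called gene of 1 list is not reported here. Alternatives were normexp (offset 50, on the median spot signal, since the mean signal was not used here) with loess, median centering, other filters on dim probes, flagged spots kept, the brightest probe, the authors' table, each group's own spread, leaving out each array of the group and, added after the values were seen, of the other groups, and other scalings of the Cy3 levels.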

Additional observations from a re-analysis of the deposited data

Results flagged for a closer look

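The *PLAUR* response differed between treatments by a test of the difference itself, by -0.93 between *LOXL2* editing and siDONSON and by -1.35 between *miR-150-3p* and siDONSON (limma adjusted p = 0.0429 and 0.0374). Both differences lost their call under other settings, as given with the results.

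*PLAU* had opposite signs in the lines given *miR-150-3p*, its log2 ratio being 0.75 for EBC-1 but -0.77 for SK-MES-1. *PLAT* did likewise, at 1.12 for EBC-1 but -0.41 for SK-MES-1. Each line has 1 array, and the difference between the lines was not tested.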

How the results depend on the processing

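No paired analysis was possible because the groups are different treatments of different lines and their replicate numbers name siRNAs, edited samples or cell lines that no other group shares. Of 287 member values under alternatives of the 3 group comparisons, 266 kept their direction and side of the threshold, 11 changed sign, 4 lost and 6 gained a call. Of 287 values of the named list genes and targeted genes, 235 kept both, 52 lost the call and 0 changed sign. Many of these values could not change direction. Leaving out an array of another group, or using a group's own spread, keeps the mean of the group. A gene with a single probe has no other probe to be its brightest, and a member that stays uncalled counts as kept. The counts are therefore no measure of robustness. Calls over all genes also fell in some of these settings, as given below for siDONSON and *miR-150-3p*. The cause was not tested unless stated.

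The number of members called was 1 under siDONSON as reported. It was 0 with normexp and loess, 0 when both channels had to be detected (fewer genes tested), 0 with the group's own spread, and 2 with no filter on dim probes, which adds *SERPINB2*, a probe that was not well above background there. Leaving out arrays gave 0 to 1. Genes called were then 465 of 14517 without siDONSON-1, 1115 of 14734 without siDONSON-2 and 97 of 14808 without siDONSON-3. Without an A549 array they were 386 to 440 of 14453. In A549 it was 0 as reported, 1 with no filter (again *SERPINB2*), 2 with the group's own spread, and 0 to 1 without an array. For *miR-150-3p* it was 0 as reported and 0 without any 1 array of the other groups, with 51 to 1036 of 14229 genes called. Of the differences between treatments, *LOXL2* editing against siDONSON had 1 call, 0 with normexp and loess, 0 with no filter and 0 to 1 without an array. *miR-150-3p* against siDONSON had 1, then 0, 0 and 0 to 1 without a siDONSON or A549 array. *LOXL2* editing against *miR-150-3p* had 0 without a siDONSON or A549 array. The shares of all genes called in these differences by setting are not given here, so their counts are not results about the members.

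Means that changed sign were small or rested on 1 line. Under *miR-150-3p*, *PLAU* was 0.057 with normexp and loess, 0.048 with the brightest probe and between -0.77 and 0.75 without an array, *PLAT* between -0.41 and 1.12 without an array, and, with normexp and loess, *SERPINE2* was 0.023 and *S100A10* 0.00088. In A549, *PLAUR* was between -0.087 and 0.14 without an array, and *ANXA2* was 0.050 with normexp and loess, 0.11 with the brightest probe and between -0.018 and 0.0016 without an array. Signals near background limit *PLAUR* and *SERPINB2* in SBC-3.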
